A study of Mus musculus with 7 samples.

Results

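Class I antigen presentation genes encode the proteins that show fragments of a cell's own proteins on its surface: the class I histocompatibility heavy chains, their light chain, the transporter that brings peptides into the endoplasmic reticulum, the proteins that trim and load these peptides, and a transactivator of the group. The 9 members (H2-K1, H2-D1, H2-T23, B2m, Tap1, Tap2, Tapbp, Erap1 and Nlrc5) were taken by symbol from a deposited count table of 23337 genes. All 9 had enough counts to be tested, Nlrc5 only through its P30 libraries. The study sequenced RNA of sorted mouse cardiomyocytes at postnatal day 30 (P30, 3 libraries, P30a to P30c) and at postnatal day 6 (P6, 4 libraries, P6a to P6d). All mice were labelled Rosa-Tom/Cas9, meaning that they carried a tdTomato reporter or Cas9 at the Rosa locus, and at both ages they had received AAV9-cTNT-Cre, an adeno-associated virus that expresses Cre recombinase from a cardiac troponin T promoter, on postnatal day 1. Hearts were digested by retrograde collagenase perfusion and cells were sorted by fluorescence. The labels do not give the allele of each mouse, the strain, the sex, or whether the libraries came from separate animals, and their treatment text names another collection age than the titles and age fields, which were used here. P-values are therefore set against differences among libraries that could be technical in part, and age cannot be told apart from time since the virus.

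In a cell that uses this pathway, the proteasome cuts cytosolic proteins into peptides, the TAP transporter carries them into the endoplasmic reticulum, and a loading complex places them on a heavy chain bound to beta-2-microglobulin, which then travels to the surface for inspection by cytotoxic T cells. Interferons and the transactivator Nlrc5 raise the transcription of these genes in many cell types. Cardiac muscle is known for low class I levels at rest, whereas endothelial cells and leukocytes carry much more.

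Between the ages, 8 of the 9 genes rose and none fell (quasi-likelihood test of edgeR at a p under 0.05 after Benjamini-Hochberg adjustment over all 12561 genes tested). Across all genes tested, 26.3% were called higher at P30 and 27.8% lower. The median log2 fold change was 1.85 over the 9 members and -0.02 over all genes tested. Levels did not overlap between the ages in 6 of the 9, with every P30 library above every P6 library, which was the case for 27.8% of all genes tested. Nlrc5 is in both counts of members, though it passed the count filter only through its P30 libraries, which favours a rise. No member fell at an unadjusted p under 0.05 either, and DESeq2 called 7 higher and 0 lower, the difference being B2m; by that test 27.7% of genes were called higher. In the authors' deposited table, 7 of the 9 members were higher with an adjusted p under 0.05, against 22.1% of the genes with an adjusted p there. Without P30b, the edgeR count was 6.

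**Figure D1:**
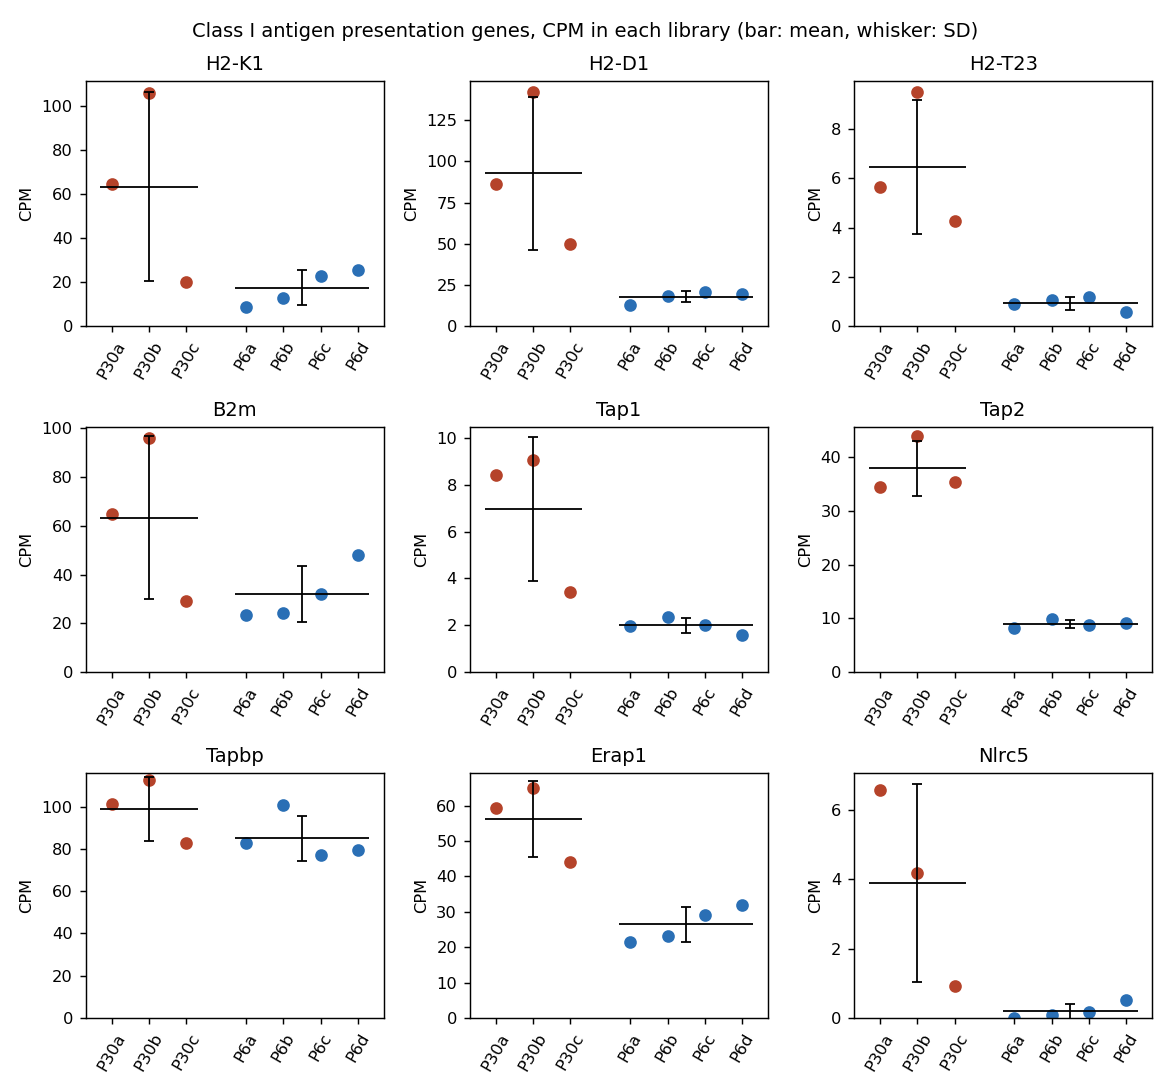
CPM (counts per 1000000 counts of a library total scaled by TMM factors) of each member in the 3 P30 libraries (red) and the 4 P6 libraries (blue), with the mean as a line and the SD as a whisker. P30b holds the highest and P30c the lowest P30 value of most genes, and the levels of H2-K1, B2m and Tapbp overlap between the ages.

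Library depth ran from 10594932 to 51427646 counts, so that 3 counts, taken here as the floor, correspond to between 0.0553 and 0.271 CPM. The libraries carried RNA of marker genes of other cell types, and some of it differed with age. Whether this RNA came from such cells was not tested. For the counts of markers that follow, 26.3% of all genes tested were called higher at P30 and 27.8% lower. Of 12 endothelial markers, 12 were tested, 11 rose and 0 fell; their summed level was 413 to 787 CPM in P30 libraries and 121 to 223 CPM in P6 libraries, and none was at 0 throughout. Kdr, a receptor for vascular endothelial growth factor, was at 153 ± 46.9 CPM at P30 (SD, n = 3) and 28.4 ± 7.64 CPM at P6 (SD, n = 4). Of 14 macrophage and leukocyte markers, 9 were tested and 9 rose, with sums of 17.4 to 53.8 CPM at P30 and 3.82 to 6.92 CPM at P6. Without P30b 5 rose, and Adgre1 is not analysed here. Class II and antigen-presenting cell markers summed to 9.32 to 31.7 CPM at P30 and 1.99 to 4.64 CPM at P6, and 4 of 6 tested rose. At such low P6 sums, genes of both lists could pass the count filter through their P30 libraries alone, which favours a call of higher. Fits without 1 library filtered the genes anew, so the genes tested could differ. Lymphocyte markers summed to at most 1.05 CPM at P30 and 0.266 CPM at P6, with Cd3g, Cd8a and Nkg7 at 0 in all libraries, and 0 of 9 had enough counts to be tested. Of 7 erythroid markers 5 had a row, Hbb-bs and Hbb-bt did not, and 0 were tested. Their sums reached 0.840 CPM at P30 and 1.33 CPM at P6, with Hba-a1 and Hba-a2 at 0 in all libraries. How reads that map to several genes were treated is not given, so these globin genes do not show whether red cell RNA was present. Of 9 fibroblast markers tested 0 rose and 1 fell (0 and 3 without P30b), with sums of 217 to 513 CPM at P30 and 336 to 643 CPM at P6. Smooth muscle and pericyte markers gave 4 higher and 0 lower of 8, with sums of 1374 to 2220 CPM at P30 and 1448 to 2544 CPM at P6. Immediate early genes, known to respond to tissue dissociation, gave 9 higher and 0 lower of 12, with sums of 2235 to 3761 CPM at P30 and 472 to 983 CPM at P6. Cardiomyocyte markers were far above all of these, at 103424 to 106095 CPM in P30 libraries and 67246 to 78528 CPM in P6 libraries, and 5 of 8 rose and 0 fell (4 and 3 when scaled by library totals). In bulk RNA, fewer cells of a type and less RNA per cell cannot be told apart, and the part of endothelial and leukocyte RNA in the changes below was not tested.

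**Figure D2:**
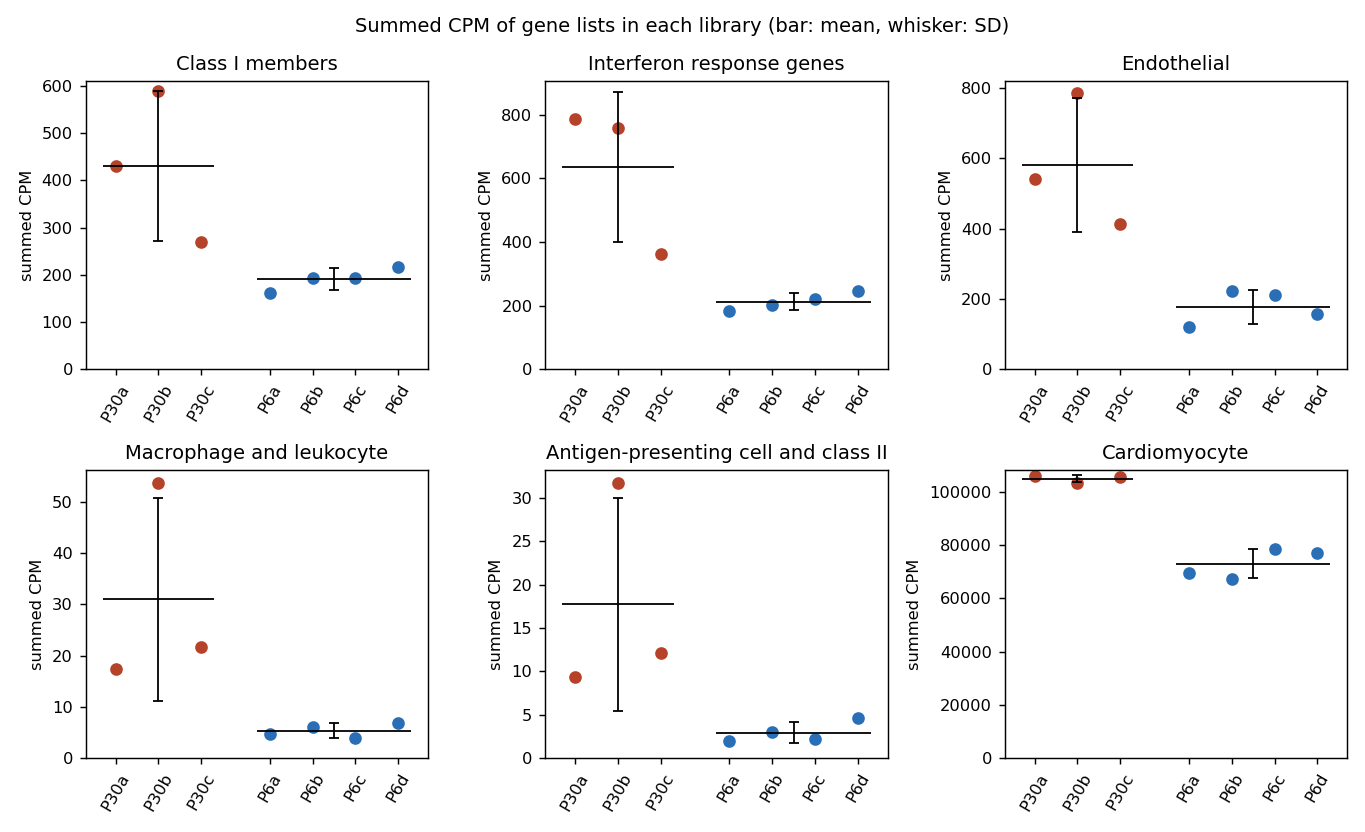
Summed CPM in each library of the class I members, the interferon response genes and 4 marker lists, P30 in red and P6 in blue, with mean and SD. P30b has the highest endothelial, leukocyte and class II sums of the P30 libraries. P30c has the lowest endothelial sum, 413 CPM, and P30a the lowest leukocyte and class II sums, 17.4 and 9.32 CPM.

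The heavy chains, which bind the peptide and are the part a T cell reads, showed large rises. H2-K1 and H2-D1 encode the classical heavy chains. H2-T23 encodes Qa-1, a non-classical heavy chain that presents leader peptides of other class I molecules to receptors on natural killer cells. All 3 lie in the histocompatibility complex on chromosome 17 (GRCm38, the build named as mm10 in the labels): H2-K1 at 33996017 to 34000347 on the minus strand, H2-D1 at 35262730 to 35267499 on the plus strand and H2-T23 at 36029773 to 36032855 on the minus strand. No exon of theirs overlaps another annotated gene.

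H2-K1 and H2-D1 share an arrangement of short motifs that class I promoters are known for, and B2m, on another chromosome, shares part of it. The upstream sequences of these genes, with that of H2-T23, are therefore shown. Each is the 200 bases before the start in RefSeq (GRCm38.p6), for H2-K1 the first of 2 starts listed, 5′ to 3′ on the gene's strand, with the matched letters in capitals: GGGATTCCC (a kappa-B site), AGTTTC or its reverse complement GAAACT (the first letters of the interferon-stimulated response element, ISRE), TGACG (the core of a cyclic AMP response element) and CCAAT or its reverse complement ATTGG (the box bound by NF-Y). The RefSeq starts differ from the outer ends of the gene spans above, so that the H2-D1 stretch lies wholly, and the H2-T23 stretch mostly, inside its gene's span.
H2-K1, chr17:34000348-34000547, minus strand: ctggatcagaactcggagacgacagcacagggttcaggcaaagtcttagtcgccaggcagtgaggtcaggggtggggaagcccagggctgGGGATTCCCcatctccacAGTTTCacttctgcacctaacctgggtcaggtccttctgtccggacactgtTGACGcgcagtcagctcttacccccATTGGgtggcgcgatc
H2-D1, chr17:35262894-35263093, plus strand: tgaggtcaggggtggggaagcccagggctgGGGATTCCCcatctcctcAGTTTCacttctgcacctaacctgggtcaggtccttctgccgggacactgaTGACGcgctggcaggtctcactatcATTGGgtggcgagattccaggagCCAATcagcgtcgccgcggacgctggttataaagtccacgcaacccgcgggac
H2-T23, chr17:36032702-36032901, minus strand: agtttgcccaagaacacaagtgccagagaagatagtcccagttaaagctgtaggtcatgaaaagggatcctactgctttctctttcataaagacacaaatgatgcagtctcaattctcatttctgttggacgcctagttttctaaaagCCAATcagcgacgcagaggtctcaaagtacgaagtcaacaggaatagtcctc
B2m, chr2:122147487-122147686, plus strand: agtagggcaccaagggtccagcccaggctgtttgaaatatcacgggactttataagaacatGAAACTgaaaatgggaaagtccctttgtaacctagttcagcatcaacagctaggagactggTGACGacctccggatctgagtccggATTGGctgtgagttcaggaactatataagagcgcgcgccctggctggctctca

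In H2-K1 and H2-D1 the kappa-B and ISRE letters started 18 bases apart, the ISRE and TGACG letters 51 bases apart, and TGACG and ATTGG 25 bases apart. B2m held TGACG and ATTGG with the same spacing of 25 bases and the ISRE letters on the other strand, 61 bases from TGACG, while H2-T23 held only the CCAAT box. No matches overlapped in the printed stretches. The windows searched reached from 250 bases before to 50 bases after the start, on both strands, in 32851 promoters; 7 of the 9 members were listed, and Tap2 and Nlrc5 were not. Among all promoters 0.353% held the kappa-B letters, against 2 of the 7 members. These 2, H2-K1 and H2-D1, have closely alike stretches and do not count as separate matches. The letters are 1 exact string of a motif already known from class I promoters, so the 2 shares are not independent evidence. The ISRE letters stood in 15.8% of all promoters and in 3 of the 7 members, the TGACG letters in 20.8% and in 4 of 7, and the CCAAT box in 37.4% and in 6 of 7. Of the members searched but not printed, Erap1, which rose, held none of these motifs. Tap1, which also rose, held TGACG and 1 CCAAT box, and Tapbp, which did not pass the test, held 2 CCAAT boxes only. The pair of TGACG and ATTGG at 25 bases, a combination searched for after its spacing had been seen in these genes, stood in 31 promoters, or 0.0944%, 3 of them those of H2-K1, H2-D1 and B2m. Globally aligned, the printed stretches of H2-K1 and H2-D1 had the same letter at 91.4% of 140 aligned bases. These matches describe letters only, not binding, and their relation to the changes in level was not tested.

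H2-D1 was at 86.1, 142 and 50.2 CPM in P30a to P30c, against 13.0, 18.6, 20.6 and 19.8 CPM in P6a to P6d. All P30 libraries stood above all P6 libraries, and P30c was the lowest of them. Its log2 fold change was 2.36 ± 0.30 (SE), a 5.12-fold rise, with an edgeR adjusted p of 0.00017. H2-T23 was at 5.63, 9.50 and 4.28 CPM in P30a to P30c, and at 0.905, 1.07, 1.20 and 0.591 CPM in P6a to P6d, with no overlap. Its log2 fold change was 2.71 ± 0.34 (edgeR adjusted p = 0.00016). H2-K1 was at 64.3, 106 and 19.9 CPM in P30a to P30c, against 8.86, 12.7, 23.02 and 25.5 CPM in P6a to P6d. Here the ages overlapped: P30c was below P6c and P6d, and P6a and P6b were lower than the other P6 libraries. The rise of H2-K1 had a log2 fold change of 1.85 ± 0.50 (edgeR adjusted p = 0.011), and without P30b it was 1.27 with an edgeR adjusted p of 0.058. In each of these genes P30b was highest and P30c lowest among P30 libraries, as they also were in the endothelial sum. The leukocyte and class II sums were likewise highest in P30b, but lowest in P30a.

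Counts of H2 genes are less certain than those of other members because the genes resemble each other. The coding sequences of H2-K1 and H2-D1 were identical at 91.5% of aligned bases, and those of H2-K1 and H2-T23 at 82.8%. Of all 50-base windows in the longest coding transcript, 8.79% in H2-K1, 14.3% in H2-D1 and 28.8% in H2-T23 occurred exactly in a transcript of another gene. How reads that map to several genes were treated is not given in the sources used here. The mouse reference comes from the C57BL/6J strain, class I genes are known to differ between strains, and the strain of these mice is not given.

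The light chain gene B2m, on chromosome 2 (122147686 to 122153083, plus strand), had a smaller log2 fold change than each of the 3 heavy chains, a difference that was not tested. It was at 65.0, 95.8 and 29.2 CPM in P30a to P30c, against 23.4, 24.2, 32.1 and 48.2 CPM in P6a to P6d. The ages overlapped, with P30c below P6c and P6d, the same libraries as in H2-K1. Its log2 fold change was 0.99 ± 0.36 with an edgeR adjusted p of 0.042. That call was lost with library totals (log2 fold change 0.83, edgeR adjusted p = 0.082), with DESeq2 (adjusted p = 0.066) and without any of P6a, P6b, P6c, P30a and P30b (edgeR adjusted p of up to 0.22, and log2 fold change 0.57, without P30b). In the authors' deposited table its adjusted p was 0.082. No 50-base window of its transcript occurred in another gene.

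Within each library, the counts of heavy chains set against those of B2m need no scaling between libraries. The counts of H2-K1, H2-D1 and H2-T23 together were 2.40, 2.69 and 2.55 per B2m count in P30a to P30c, and 0.973, 1.34, 1.40 and 0.951 per B2m count in P6a to P6d. This ratio was close among the P30 libraries, which differed widely in the level of each gene, and it did not overlap between the ages. H2-K1 made up 42.8%, 42.6% and 28.4% of the counts of H2-K1 and H2-D1 in P30a to P30c, against 40.5%, 40.4%, 52.8% and 56.3% in P6a to P6d. Here the ages overlapped, and P6a and P6b stood apart from P6c and P6d. No test was run on these ratios, since the genes were chosen with earlier results known.

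**Figure D3:**
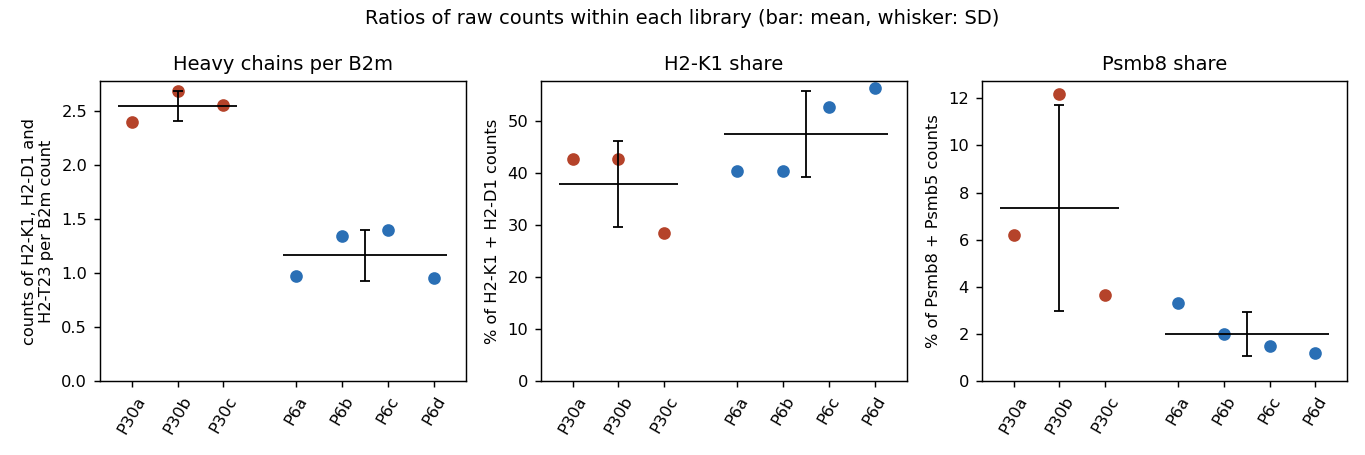
Ratios of raw counts in each library, P30 in red and P6 in blue with mean and SD: heavy chain counts per B2m count, H2-K1 as a share of H2-K1 and H2-D1, and Psmb8 as a share of Psmb8 and Psmb5. The first ratio is 2.40 to 2.69 at P30 and 0.951 to 1.40 at P6, while the H2-K1 share overlaps between the ages.

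The peptide transporter is a complex of the Tap1 and Tap2 proteins, whose genes lie side by side on chromosome 17 (Tap1 at 34187553 to 34197225 and Tap2 at 34203527 to 34216321, both on the plus strand). Tap2 was at 34.5, 43.8 and 35.4 CPM in P30a to P30c, against 8.14, 9.92, 8.76 and 9.20 CPM in P6a to P6d. All P30 libraries were well above all P6 libraries, and libraries of an age lay close together: the log2 fold change was 2.07 ± 0.13 (edgeR adjusted p = 3.2e-06) and stayed between 1.95 and 2.14 with any 1 library left out. Tap1 was at 8.42, 9.05 and 3.44 CPM in P30a to P30c, and at 1.99, 2.36, 2.03 and 1.60 CPM in P6a to P6d. No P6 library reached the level of P30c, the lowest P30 library, and the log2 fold change was 1.79 ± 0.33 (edgeR adjusted p = 0.0015). Tap1 made up 19.6%, 17.1% and 8.84% of the counts of the pair in P30a to P30c, against 19.6%, 19.2%, 18.8% and 14.8% in P6a to P6d, so that P30c alone was outside the range of the other libraries. Exons of Tap1 overlap 212 bases of Psmb9 on the other strand, and those of Tap2 overlap annotated antisense transcripts; because no source used here gives the strand setting of the counts, reads of such partners cannot be told apart.

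Tapbp encodes tapasin, which holds the heavy chain at the transporter while peptide is loaded (chromosome 17, 33915899 to 33929292, plus strand). Of the 9 members it was the exception. Its level was 101, 113 and 82.8 CPM in P30a to P30c, against 82.8, 101, 76.9 and 79.5 CPM in P6a to P6d, with overlapping ages. The log2 fold change of 0.22 ± 0.13 did not pass the test (edgeR adjusted p = 0.18), although without P6b it did, at 0.31 with an edgeR adjusted p of 0.047, and with library totals it was 0.04 with an edgeR adjusted p of 0.84. Erap1, the aminopeptidase of the endoplasmic reticulum that trims peptides to the length the groove accepts (chromosome 13, 74639568 to 74693201, plus strand), was at 59.4, 65.1 and 44.1 CPM in P30a to P30c, against 21.5, 23.2, 29.1 and 31.9 CPM in P6a to P6d. Every P30 library was above every P6 library, and the log2 fold change was 1.09 ± 0.17 (edgeR adjusted p = 0.00057). Exons of Tapbp overlap 1053 bases of other genes, Zbtb22 among them on the same strand, and those of Erap1 overlap 834 bases of Cast on the other strand.

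Nlrc5, the transactivator that is recruited to class I promoters through the proteins on the X and Y boxes (chromosome 8, 94434356 to 94527272, plus strand), was barely counted at P6. It had 118, 65 and 13 counts in P30a to P30c, or 6.58, 4.20 and 0.912 CPM, against 0, 3, 10 and 6 counts in P6a to P6d, or 0, 0.0999, 0.184 and 0.506 CPM. The P30 libraries differed from each other by more than any P6 library reached, with P30a highest, and there was no overlap between the ages. Its log2 fold change of 4.39 ± 0.78 (edgeR adjusted p = 0.0012) rests on P6 values at or near the floor of 3 counts. With 1 library left out it ran from 3.77 without P30a to 4.89 without P6d. Because Nlrc5 passed the count filter only through its P30 libraries, a rise was favoured before the test.

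**Figure D4:**
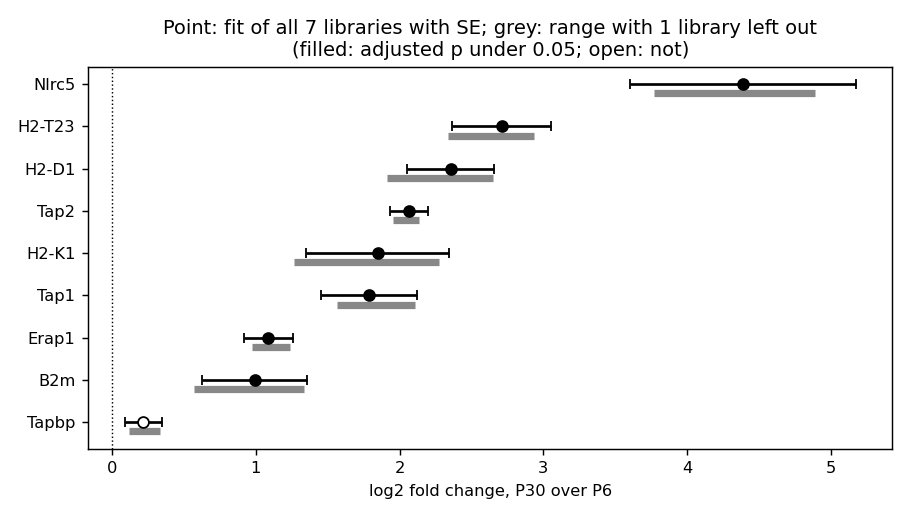
Log2 fold change of each member, P30 over P6, with its SE (black) and the range over fits with 1 library left out (grey); filled points had an edgeR adjusted p under 0.05 and the open point, Tapbp, did not. Nlrc5 stands highest at 4.39 and Tapbp lowest at 0.22.

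Per kilobase of the longest annotated coding transcript, B2m had the highest mean level at both ages, 73.7 ± 38.8 CPM per kilobase at P30 (SD, n = 3) and 37.2 ± 13.4 CPM per kilobase at P6 (SD, n = 4). At P30 it was followed by H2-D1 with 44.2 ± 22.05, H2-K1 with 39.1 ± 26.5 and Tapbp with 34.1 ± 5.21 CPM per kilobase, and each of these overlapped its neighbour in the range of its libraries. Lower levels at P30 were those of Tap2 with 11.0 ± 1.49, Erap1 with 9.96 ± 1.92, H2-T23 with 4.40 ± 1.84, Tap1 with 2.36 ± 1.04 and Nlrc5 with 0.514 ± 0.376 CPM per kilobase. Of these, Tap2 and Erap1 overlapped, as did H2-T23 and Tap1, while Tapbp stood clear of Tap2, Erap1 of H2-T23 and Tap1 of Nlrc5. At P6 the order differed: Tapbp came second with 29.3 ± 3.70, ahead of H2-K1 with 10.8 ± 4.95, H2-D1 with 8.56 ± 1.62, Erap1 with 4.68 ± 0.866 and Tap2 with 2.62 ± 0.218 CPM per kilobase. Last at P6 were Tap1 with 0.676 ± 0.105, H2-T23 with 0.638 ± 0.178 and Nlrc5 with 0.0261 ± 0.0289 CPM per kilobase. The P6 levels overlapped between B2m and Tapbp, between H2-K1 and H2-D1 and between Tap1 and H2-T23, and not between the other neighbours.

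Libraries of the same age were not alike. P30b was the highest P30 library in 8 of the 9 genes, Nlrc5 being the other, and P30c the lowest in 8, Tap2 being the other. The 9 genes summed to 431, 588 and 270 CPM in P30a to P30c, against 161, 193, 194 and 217 CPM in P6a to P6d. Without P30c, 8 members were higher and 0 lower, as with all libraries. Among P6 libraries P6a was the lowest in 6 of the 9 genes.

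Other class I and class I-like heavy chains gave a mixed picture. Over all genes tested, 26.3% were called higher at P30 and 27.8% lower. Of 27 listed, 25 had a row and only 8 had enough counts to be tested. Of these 8, 5 rose and 1 fell, and with library totals 2 fell. Their median log2 fold change was 1.35, against -0.02 over all genes. H2-K2, H2-Q6 and H2-T24 were low in every P6 library and passed the count filter only through their P30 libraries. That favours a rise, so the count and the median do not compare evenly with all genes. Cd1d1, which presents lipids to natural killer T cells, went against the members: it fell to 4.85, 4.20 and 2.46 CPM in P30a to P30c, against 42.5, 38.4, 42.7 and 42.3 CPM in P6a to P6d (log2 fold change -3.42 ± 0.20, edgeR adjusted p = 2.3e-06). Its transcript shares 25.8% of its 50-base windows with Cd1d2. Hfe, a regulator of iron uptake, rose to 62.8, 70.3 and 64.0 CPM in P30a to P30c, against 15.8, 15.2, 19.9 and 19.9 CPM in P6a to P6d (log2 fold change 1.89 ± 0.13, edgeR adjusted p = 4.2e-06). Fcgrt, the neonatal Fc receptor, which also pairs with B2m, rose by a log2 fold change of 0.81 ± 0.12 (edgeR adjusted p = 0.00047). H2-T24 was at 5.70 ± 1.82 CPM at P30 (SD, n = 3) and 0.463 ± 0.0854 CPM at P6 (SD, n = 4), with a log2 fold change of 3.54 ± 0.32. H2-Q6 was at 3.04 ± 1.54 CPM at P30 and 0.0397 ± 0.0470 CPM at P6, where no library exceeded 5 counts; 32.0% of its 50-base windows occur in other genes. Mr1, which presents vitamin B metabolites, had a log2 fold change of -0.23 ± 0.16 and H2-M3, which presents formylated peptides, one of 0.80 ± 0.43, and neither passed the test; with library totals Mr1 did (-0.42, edgeR adjusted p = 0.044), as H2-M3 did without P6c (1.18, edgeR adjusted p = 0.048). H2-K2 rose as well, at a mean of 1.28 ± 0.253 CPM at P30 (SD, n = 3) and 0.201 ± 0.175 CPM at P6 (SD, n = 4). H2-Q7, H2-Q9, H2-T9, H2-T22 and H2-M10.1 had no count in any library, and of the windows of H2-Q7 and H2-T22, 34.9% and 44.7% occur in other genes.

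Genes that supply or load peptides had medians nearer 0. Chaperones and editors of the loading step gave 4 higher (Calr, Hspa5, Pdia3 and Uggt1) and 3 lower (Canx, Sec61a1 and Sec61g) of 14. With library totals they gave 3 higher and 4 lower. Their median log2 fold change was 0.20. Among all genes tested 26.3% were called higher at P30 and 27.8% lower, and the chaperone counts are near these shares. Hspa5, the main chaperone of the endoplasmic reticulum, was at 1356 ± 114 CPM at P30 (SD, n = 3) and 775 ± 95.6 CPM at P6 (SD, n = 4), with an edgeR adjusted p of 0.00024. Calr, the chaperone calreticulin of the loading complex, was at 393 ± 63.8 CPM at P30 and 238 ± 38.9 CPM at P6, with an edgeR adjusted p of 0.0024. The call of Canx, the chaperone calnexin, was lost in 5 of the fits without 1 library (edgeR adjusted p of up to 0.20). The same call was lost with other size factors (edgeR adjusted p = 0.066) and with no count filter (edgeR adjusted p = 0.099). Sec61g, a subunit of the protein channel, fell by 1.04 ± 0.29 on the log2 scale (edgeR adjusted p = 0.013, and 0.052 without P30b). All 7 peptidases listed for trimming outside the endoplasmic reticulum passed the test, of which 6 rose and 1 fell, against 4 and 1 with library totals. Their median log2 fold change was 0.46. Lnpep, the insulin-regulated aminopeptidase, rose to 79.0 ± 6.52 CPM at P30, against 24.2 ± 3.08 CPM at P6 (log2 fold change 1.71 ± 0.12). Nrd1 and Npepps rose by log2 fold changes of 0.81 ± 0.08 and 0.55 ± 0.09. Blmh, bleomycin hydrolase, fell by 0.62 ± 0.08 on the log2 scale.

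The catalytic subunits of the immunoproteasome replace the constitutive ones after interferon. Beside the counts given here, 26.3% of all genes tested were called higher at P30 and 27.8% lower. Of 6 genes listed with the PA28 activator, 2 rose and 1 fell; with library totals 3 fell, and with the length trend removed none did. Psmb8 was at 4.97, 9.18 and 2.03 CPM in P30a to P30c, against 1.54, 0.699, 1.01 and 0.928 CPM in P6a to P6d (log2 fold change 2.41 ± 0.48, edgeR adjusted p = 0.0022). Psmb9, the neighbour of Tap1, had a log2 fold change of 2.14 ± 0.52 (edgeR adjusted p = 0.0066), whereas Psmb10 had one of -0.14 ± 0.10 and did not pass, though with library totals it was -0.32 with an edgeR adjusted p of 0.020. Psme2, a PA28 subunit, fell by 0.49 ± 0.14 on the log2 scale (edgeR adjusted p = 0.014). None of the constitutive subunits Psmb5, Psmb6 and Psmb7 passed the edgeR test, and 1 was lower with library totals and all 3 were higher with the length trend removed. Psmb8 made up 7.34% ± 4.38 of Psmb8 and Psmb5 counts at P30 (SD, n = 3) and 1.996% ± 0.936 at P6 (SD, n = 4), by an exact permutation test over 35 splits p = 0.0286, the smallest it allows, and 0.0429 adjusted over 3 pairs; without P30b the difference of 5.34 percentage points was 2.92. Psmb9 made up 1.01% ± 0.602 of its pair with Psmb6 at P30 and 0.211% ± 0.0807 at P6, with the same exact p-values. These pairs were chosen with earlier results of these data known, so the p-values are not independent evidence beside the changes of Psmb8 and Psmb9 above. The share of Psmb10 in its pair with Psmb7 was 21.9% ± 0.583 at P30 and 24.1% ± 1.77 at P6 (exact permutation p = 0.143, adjusted 0.143).

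Regulators and interferon genes completed the pathway. Of 19 genes for factors that bind or silence class I promoters, 6 rose and 6 fell, with a median log2 fold change of 0.17. These counts are near the shares over all genes tested, 26.3% higher and 27.8% lower. Rela and Nfkb1, subunits of NF-kappaB, had log2 fold changes of 0.40 ± 0.11 and 0.57 ± 0.14 (edgeR adjusted p = 0.012 and 0.0074); the call of Rela was lost without P30b (edgeR adjusted p = 0.058) and with library totals. Prdm1, a transcriptional repressor, rose by a log2 fold change of 3.08 ± 0.63 to 3.32 ± 1.36 CPM at P30 (SD, n = 3), against 0.454 ± 0.486 CPM at P6 (SD, n = 4). Nfyc, a subunit of the CCAAT-binding factor NF-Y, fell by 0.66 ± 0.11 on the log2 scale (edgeR adjusted p = 0.00079). Rfx5 and Rfxap, which bind the X box where Nlrc5 is recruited, and the silencing subunits Ezh2 and Suz12 of the Polycomb complex were named after their values were seen. Rfx5 was at 5.95 ± 2.05 CPM at P30 and 10.9 ± 2.73 CPM at P6, with overlapping libraries, and Rfxap at 18.7 ± 1.25 CPM at P30 and 24.3 ± 2.53 CPM at P6; both calls were lost in some fits without 1 library (edgeR adjusted p of up to 0.076 and 0.10). Ezh2 fell by 1.77 ± 0.14 and Suz12 by 1.01 ± 0.12 on the log2 scale. Rfxank, the other RFX gene listed, had a log2 fold change of -0.02 ± 0.13 (edgeR adjusted p = 0.88). Eed, the other Polycomb gene listed, had one of 0.17 ± 0.12 (edgeR adjusted p = 0.25), so neither passed. Irf1, an interferon-induced activator of class I genes that was also named after its values were seen, was at 13.5 ± 4.09 CPM at P30 (SD, n = 3) and 2.69 ± 0.604 CPM at P6 (SD, n = 4).

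Among the 16 genes of interferon receptors and their signalling, 10 rose and 2 (Ifnar1 and Ptpn2) fell, while library totals gave 7 and 2. For this list and the next, the edgeR shares over all genes tested were 26.3% higher and 27.8% lower. Ifngr2, a receptor chain for interferon gamma, and Jak1, the kinase shared by the receptors, had log2 fold changes of 0.37 ± 0.10 and 0.62 ± 0.09; the edgeR adjusted p of Ifngr2 was 0.014, but 0.055 without P30b and 0.19 with library totals, where its log2 fold change was 0.19. Ifnar1, a receptor chain for type I interferon, fell by 0.30 ± 0.10 on the log2 scale, a call lost without any 1 of the P30 libraries (edgeR adjusted p of up to 0.073). Irf7, a factor that amplifies the interferon response, was at 13.7, 28.4 and 4.77 CPM in P30a to P30c, against 2.08, 2.76, 2.21 and 3.88 CPM in P6a to P6d. Of 34 interferon response genes tested, 29 rose and 0 fell by edgeR, or 29 and 1 with library totals. Their median log2 fold change was 2.43. Fits without 1 library filtered the genes anew, so their counts are out of the 38 listed genes with a row. In these fits 34 rose without P30c, and 25 rose and 1 fell without P30b. Iigp1 and Ly6e had log2 fold changes of 2.43 ± 0.26 and 2.37 ± 0.31, and Ifi44 of 4.51 ± 0.73. The value of Ifi44 rests on 4, 0, 15 and 1 counts in P6a to P6d, some of them under the floor of 3 counts. The list summed to 785, 757 and 363 CPM in P30a to P30c, against 183, 201, 222 and 245 CPM in P6a to P6d, so that P30c was lowest among P30 libraries here as in most class I genes.

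**Figure D5:**
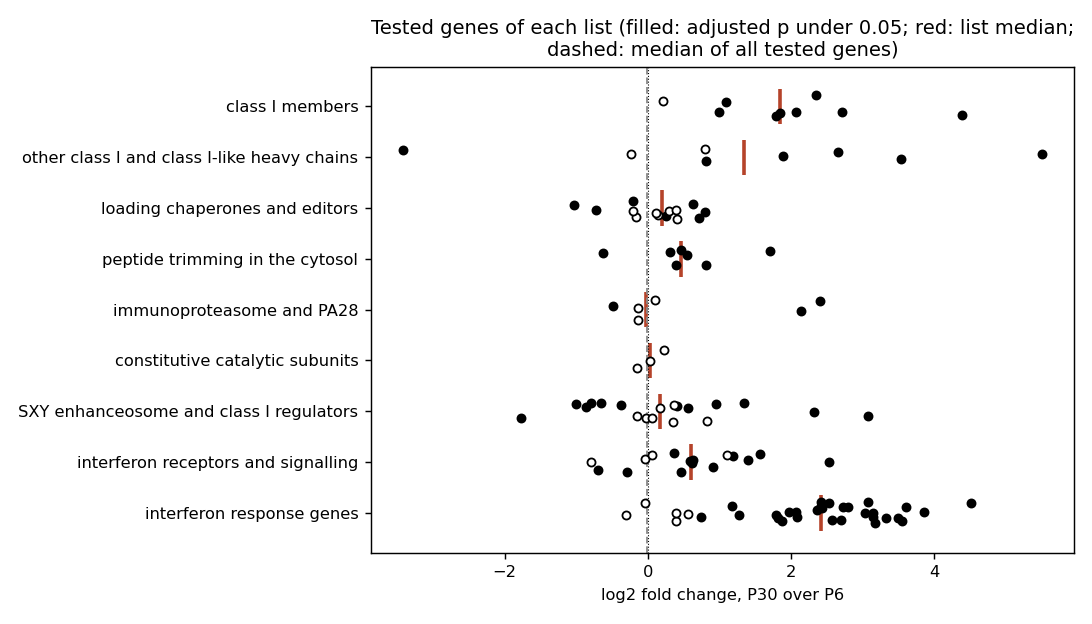
Log2 fold change, P30 over P6, of each tested gene in the 9 pathway lists; filled points had an edgeR adjusted p under 0.05, the red line is the list median and the dashed line the median of all tested genes. The interferon response list (median 2.43) and the class I members (1.85) lie to the right, and the constitutive proteasome subunits lie near 0.

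The genes whose pattern over the 7 libraries was most like the mean of the members were Fam101b, Oasl1, Pcdh12, Cxcl12 and Shroom4, with Pearson r of 0.999, 0.996, 0.996, 0.991 and 0.990 on log2(CPM + 0.5). These values share libraries and depth and rest largely on the difference between the ages. Oasl1 belongs to an interferon-induced family, Pcdh12 encodes a protocadherin of endothelial junctions and Cxcl12 a chemokine. Cxcl12 was at 72.5, 78.2 and 41.1 CPM in P30a to P30c, against 13.5, 16.5, 20.8 and 19.4 CPM in P6a to P6d, and Pcdh12 at 16.1, 21.8 and 8.07 CPM in P30a to P30c, against 2.71, 2.83, 3.85 and 4.30 CPM in P6a to P6d. In both, as in most members, P30b was highest and P30c lowest among the P30 libraries.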

How the data were processed

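RNA of sorted cardiomyocytes was sequenced in 3 P30 and 4 P6 libraries. The authors deposited raw counts per gene symbol, made with CASAVA 1.8, STAR 2.5.3a and featureCounts of Subread 1.5.2 on mm10, per the submitters' processing notes; no source used here gives the strand setting, the annotation or the treatment of multi-mapping reads. Their second table is a DESeq2 comparison, per the file headers: mean scaled counts (a signal deposited by the authors), log2 fold changes with SE, a Wald score and p-values, also deposited by the authors. Count columns carry letters that match no title number so each went to its age group by the age it names.

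The test of the counts was the quasi-likelihood fit of age in edgeR 4.0.16 under R 4.3.3, without covariates, after filterByExpr and with TMM factors; of 23337 genes, 12561 were tested and p-values were adjusted by Benjamini-Hochberg with a threshold of 0.05. The SE is the log2 fold change divided by the root of F. CPM uses TMM-scaled totals. DESeq2 1.42.0 was an alternative. The procedure was tested on simulated data. The lowest chi-square per gene between libraries of an age was 13.0, so no library duplicated another. The floor of 3 counts covers counting error only, while SD and SE include variation between libraries.

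The members, gene lists and naming rule were chosen with earlier results of these data known. All members are named; each pathway list adds its most counted called genes, the called gene with the largest fold change (mean CPM no lower than 1), its most counted gene in the other direction, and heavy chains above the same level; the proteasome pairs and the 5 genes most like the members complete it. Of the marker lists, sums, counts and Kdr are given. Coordinates, transcript lengths and 50-base windows come from GENCODE M21 (GRCm38), and promoters from RefSeq. Alternatives were other scalings, no count filter, removal of a transcript length trend, DESeq2 and leaving out each library. The values of 1 further gene are not reported here.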

Additional observations from a re-analysis of the deposited data

How the results depend on the processing

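Scaling by library totals put the median over all genes at -0.20 on the log2 scale, against -0.02 with TMM factors, and 2408 genes were higher and 4658 lower, against 3307 and 3490; 7 members were then higher and 0 lower. All 9 members had a positive log2 fold change under every alternative run: other size factors, library totals, no count filter, length trend removed, DESeq2 and each library left out. The calls that changed were those of B2m, whose log2 fold change was 0.83 with library totals and 1.00 with DESeq2 (adjusted p = 0.082 and 0.066) and 0.57 to 1.34 with 1 library left out, of H2-K1, at 1.27 to 2.27 with 1 library left out, and of Tapbp, at 0.12 to 0.33 with 1 library left out and 0.04 with library totals (adjusted p = 0.84). The number of members called higher was 6 to 8 with 1 library left out. The difference in share, P30 minus P6, was 2.92 to 7.18 percentage points for Psmb8 and 0.559 to 1.14 points for Psmb9 with 1 library left out; with 6 libraries the exact test cannot pass after adjustment (adjusted p of 0.1 to 0.15), so this says nothing about stability. Of the other genes named with a log2 fold change, Psmb10, which did not pass the test, changed sign to 0.07 with the length trend removed. The causes were not tested. No paired analysis was possible because the count columns carry letters that the labels tie to no replicate number, so the replicate block was not run. Depth limits Nlrc5, H2-T23, H2-Q6, H2-K2, H2-T24, Prdm1, Psmb9 and Ifi44 at P6, where some libraries held few counts. Except for H2-T23, these genes would not have passed the count filter on their P6 libraries alone. Such a filter favours calls of higher. The length trend was fitted on 11376 genes with an annotated length.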
